A study of Mus musculus with 8 samples.

Results

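The genes described here are 10 that encode integrin subunits and their partners, the alpha subunits Itgav, Itga1, Itga5 and Itga9, the beta subunits Itgb1, Itgb3, Itgb5 and Itgb8, the extracellular ligand Fn1 and the cytoplasmic adaptor Ilk. They were taken as the rows of a liver gene table whose mouse symbol in the GENCODE M21 annotation is one of these names, 10 of 55450 rows, and they were chosen by a measured value, the strongly higher Itgav count in AAV-H19 livers than in AAV-Null livers. That comparison is also the only one the study makes, so the members' values between the groups are given as a description, with no p-value. The calls on members in the fit over all genes and in its alternatives are counted, and nothing is read from them. All 10 members passed the filter on low counts, which left 16672 genes.

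The samples were 8 mouse livers, profiled by sequencing of poly(A) RNA, and all came from animals on an ethanol diet. Of these, 4 mice had received an adeno-associated virus (AAV, a vector often used to bring a gene into the liver) named for H19, a long non-coding RNA from an imprinted locus (AAV-H19 livers 25 to 28). The other 4 had received AAV-Null, whose insert is not described in the labels (AAV-Null livers 21 to 24). Ethanol feeding was common to all 8 livers, and the labels give no strain, sex, age, virus dose or promoter of the vector.

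Integrins are cell-surface receptors made of an alpha and a beta subunit that tie the extracellular matrix to the actin cytoskeleton. The product of Itgav pairs with those of Itgb1, Itgb3, Itgb5, Itgb6 and Itgb8, binds RGD-containing proteins such as fibronectin and vitronectin, and several of these pairs release active TGF-beta from its latent complex, a step studied in liver fibrosis. The products of Itga1, Itga5 and Itga9 pair with that of Itgb1, and the Itga5 pair is the classical fibronectin receptor.

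The stretch just upstream of the transcription start is shown for 3 subunits, Itgav as the gene whose level sets the group apart, and Itga5 and Itgb5 as an alpha and a beta subunit that overlapped between the groups. Each is 250 bases, 5′ to 3′ on the gene's own strand, from RefSeq on GRCm38.p6, with GC boxes (GGGCGG on either strand, so also CCGCCC) in capitals. They lie at chr2:83724147-83724396 on the plus strand for Itgav, chr15:103366792-103367041 on the minus strand for Itga5 and chr16:33829415-33829664 on the plus strand for Itgb5.
Itgav: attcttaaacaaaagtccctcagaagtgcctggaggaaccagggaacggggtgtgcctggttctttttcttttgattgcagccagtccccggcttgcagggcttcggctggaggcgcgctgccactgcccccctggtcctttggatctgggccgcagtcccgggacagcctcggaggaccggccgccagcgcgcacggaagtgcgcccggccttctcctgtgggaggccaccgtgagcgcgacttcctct
Itga5: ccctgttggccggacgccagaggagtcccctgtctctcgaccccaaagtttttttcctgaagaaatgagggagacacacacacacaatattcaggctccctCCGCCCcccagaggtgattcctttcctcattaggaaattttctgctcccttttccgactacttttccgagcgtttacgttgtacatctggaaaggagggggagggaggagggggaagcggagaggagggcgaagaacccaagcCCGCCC
Itgb5: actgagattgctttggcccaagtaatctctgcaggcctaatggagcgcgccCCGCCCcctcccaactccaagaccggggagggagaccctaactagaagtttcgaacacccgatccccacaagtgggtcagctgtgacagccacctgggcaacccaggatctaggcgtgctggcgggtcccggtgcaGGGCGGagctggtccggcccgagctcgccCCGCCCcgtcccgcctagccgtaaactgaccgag
The Itgav window held no GC box, no TATA box (TATAAA) and no CCAAT box (CCAAT) on either strand, and was 64.4% G and C. The Itga5 window held 2 GC boxes and the Itgb5 window 3, and neither held a TATA or CCAAT box. No searched motif overlaps another in these windows. Among 32851 promoter windows of the same length, 32.7% held a GC box, 12.4% a TATA box and 33.8% a CCAAT box. Sequences were matched for 8 of the 10 members, all but Itgb3 and Fn1. Of the windows not shown, those of Itga1, Itga9 and Itgb8, whose groups also overlapped, held 0 GC boxes, as Itgav did. The Itgb1 window held 1, and Ilk had entries 1 and 2, with 0 and 3 GC boxes. The Itga9 window lies 105002 bases from that gene's GENCODE start, and the Itgb8 window 526 bases from its own, both inside the gene.

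The libraries matched their labels. H19 was at 104.2 to 155.3 CPM in AAV-H19 livers and at 0.142 to 1.41 CPM in AAV-Null livers, where CPM is the count scaled to library size and corrected for library composition (TMM). The table's totals were 63.7 M to 78.8 M units in AAV-H19 livers and 78.3 M to 83.0 M units in AAV-Null livers. A trend with transcript length also separated the groups. Within each library, longest annotated transcript was correlated (Spearman's rho) with level relative to the mean of all livers, across the protein-coding genes tested. This rho was 0.218 to 0.449 in AAV-H19 livers and -0.413 to -0.122 in AAV-Null livers. Among the longest 10% of all genes tested (6327 nt and over) the median log2 fold change (AAV-H19 over AAV-Null) was 0.49. Among the shortest 10% it was -0.83. The members are long, with a median of 6402 nt against 2943.5 nt over all genes tested, so each member's fold change is also given from a fit with an offset that removes this trend. The part of length in each member's difference was not tested beyond that fit.

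Itgav, on chromosome 2 (83724397 to 83806916, plus strand, GRCm38; longest transcript 7054 nt), was much higher in AAV-H19 livers. It was at 8.27, 20.1, 24.9 and 22.8 CPM in AAV-H19 livers 25, 26, 27 and 28, against 1.41, 1.63, 1.89 and 4.06 CPM in AAV-Null livers 21, 22, 23 and 24. The lowest AAV-H19 liver, 25, stood above the highest AAV-Null liver, 24, and the groups did not overlap. The other 3 AAV-H19 livers lay close together. The mean was 19.02 ± 7.44 CPM in AAV-H19 livers and 2.25 ± 1.23 CPM in AAV-Null livers (SD, n = 4 each), a fitted log2 fold change of 3.08 ± 0.44 (standard error, SE), which is 8.47-fold. These means rest on 617 to 1679 units per AAV-H19 liver and 115 to 323 units per AAV-Null liver. With the length offset the log2 fold change was 2.55 ± 0.47. Leaving out each liver in turn moved it between 2.90 and 3.54, highest without AAV-Null 24. That liver also held the most H19 of its group, at 1.41 CPM, but AAV-Null 21, next in H19 at 0.542 CPM, had the least Itgav. In AAV-H19 livers the most H19 was in liver 26 (155.3 CPM). The most Itgav was in liver 27, which had the least H19 of its group (104.2 CPM). Each library is whole liver, so more cells of a type and more RNA per cell cannot be told apart.

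Among the other alpha subunits of the set, Itga5 came next in size. Itga5, the fibronectin-binding partner of Itgb1, was at 20.1, 26.5, 26.9 and 22.9 CPM in AAV-H19 livers 25 to 28, against 23.02, 13.52, 9.931 and 13.0 CPM in AAV-Null livers 21 to 24. A single AAV-Null liver, 21, reached the AAV-H19 range, and the other 3 lay below all AAV-H19 livers. The log2 fold change of Itga5 was 0.70 ± 0.25, 0.45 ± 0.25 with the length offset, and 0.98 without AAV-Null 21. Itga1, a collagen- and laminin-binding subunit, was at 25.99, 25.35, 30.27 and 24.56 CPM in AAV-H19 livers 25 to 28, against 25.73, 22.47, 21.94 and 20.8 CPM in AAV-Null livers 21 to 24. The Itga1 groups overlapped through AAV-Null 21 alone, yet the log2 fold change was small, 0.22 ± 0.15, and its sign depended on the length correction, at -0.37 ± 0.16 with the offset. Itga1 has the longest transcript of the set (10967 nt) and overlaps Pelo and Gm49395 on the same strand, and with these genes' counts summed the log2 fold change was 0.14 ± 0.15. Itga9, a subunit that binds tenascin C and osteopontin, was at 18.2, 11.3, 13.4 and 13.3 CPM in AAV-H19 livers 25 to 28, against 11.8, 5.47, 14.0 and 13.6 CPM in AAV-Null livers 21 to 24. The Itga9 ranges overlapped widely, and the log2 fold change was 0.32 ± 0.29, or -0.15 ± 0.26 with the offset.

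The beta subunits that pair with Itgav differed less between the groups than Itgav did. Itgb1, the most widely shared beta subunit, was at 159.2, 152.9, 150.7 and 173.3 CPM in AAV-H19 livers 25 to 28, against 97.6, 135.8, 104.1 and 158.2 CPM in AAV-Null livers 21 to 24. The AAV-H19 livers were close together and high, while AAV-Null 24 alone came within their range. The log2 fold change of Itgb1 was 0.36 ± 0.18, and 0.20 ± 0.21 with the length offset. Itgb3, which pairs with Itgav and, on platelets, with Itga2b, was at 19.5, 7.55, 15.2 and 13.2 CPM in AAV-H19 livers 25 to 28, against 6.38, 3.17, 6.06 and 13.4 CPM in AAV-Null livers 21 to 24. AAV-H19 26 was low in its group and AAV-Null 24 high, so the Itgb3 ranges overlapped. Its log2 fold change was 0.93 ± 0.42 (0.50 ± 0.42 with the offset), and 0.68 to 1.42 as each liver was left out. Platelet and megakaryocyte markers summed to 10.2 to 11.9 CPM in AAV-H19 livers and 10.6 to 18.6 CPM in AAV-Null livers, with Gp6 at 0 in all 8. Most of the sum was Clec1b, which averaged 8.16 CPM in AAV-H19 livers and 11.28 CPM in AAV-Null livers. The part of these markers in the Itgb3 level was not tested.

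Itgb5, a vitronectin-binding partner found only with Itgav, was at 50.2, 62.7, 51.0 and 52.6 CPM in AAV-H19 livers 25 to 28, against 74.2, 37.8, 79.9 and 40.4 CPM in AAV-Null livers 21 to 24. The AAV-Null livers fell into a high pair (21 and 23) and a low pair (22 and 24), with every AAV-H19 liver between the pairs. The log2 fold change of Itgb5 was -0.10 ± 0.26, and -0.14 ± 0.23 with the offset. Itgb8, another subunit specific to Itgav and known for TGF-beta activation, was barely detected, with 19 to 66 units per AAV-H19 liver and 31 to 71 units per AAV-Null liver. Its level was 0.71, 0.643, 0.979 and 0.276 CPM in AAV-H19 livers 25 to 28, against 0.508, 1.005, 0.348 and 0.553 CPM in AAV-Null livers 21 to 24. The Itgb8 ranges overlapped over most of their length and the log2 fold change was 0.11 ± 0.49, too wide an error to place the groups in order.

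Fn1 (chromosome 1, longest transcript 8315 nt), which encodes fibronectin and is made by hepatocytes for the plasma, was the second member whose groups did not overlap. Fn1 was at 2015.4, 1543.9, 1733.0 and 1236.3 CPM in AAV-H19 livers 25 to 28, against 771.6, 774.2, 694.7 and 652.7 CPM in AAV-Null livers 21 to 24. Every AAV-H19 liver lay well above every AAV-Null liver, and the AAV-Null livers were close together. The mean was 1632 ± 327 CPM in AAV-H19 livers and 723.3 ± 59.8 CPM in AAV-Null livers (SD, n = 4 each), a log2 fold change of 1.17 ± 0.18, which is 2.26-fold. With the length offset it was 0.60 ± 0.19. AAV-H19 25, the lowest of its group for Itgav, was the highest for Fn1, so within AAV-H19 livers these genes did not follow each other.

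Ilk, integrin-linked kinase, is a pseudokinase scaffold that binds beta subunit tails and, with PINCH and parvin proteins, links them to actin. Ilk was at 42.6, 36.7, 39.2 and 39.4 CPM in AAV-H19 livers 25 to 28, against 29.7, 52.6, 30.4 and 54.7 CPM in AAV-Null livers 21 to 24. As with Itgb5, the AAV-H19 livers lay inside the AAV-Null range, but here AAV-Null 22 and 24 were the high pair. The log2 fold change of Ilk was -0.08 ± 0.23, and -0.01 ± 0.24 with the offset.

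**Figure D1:**
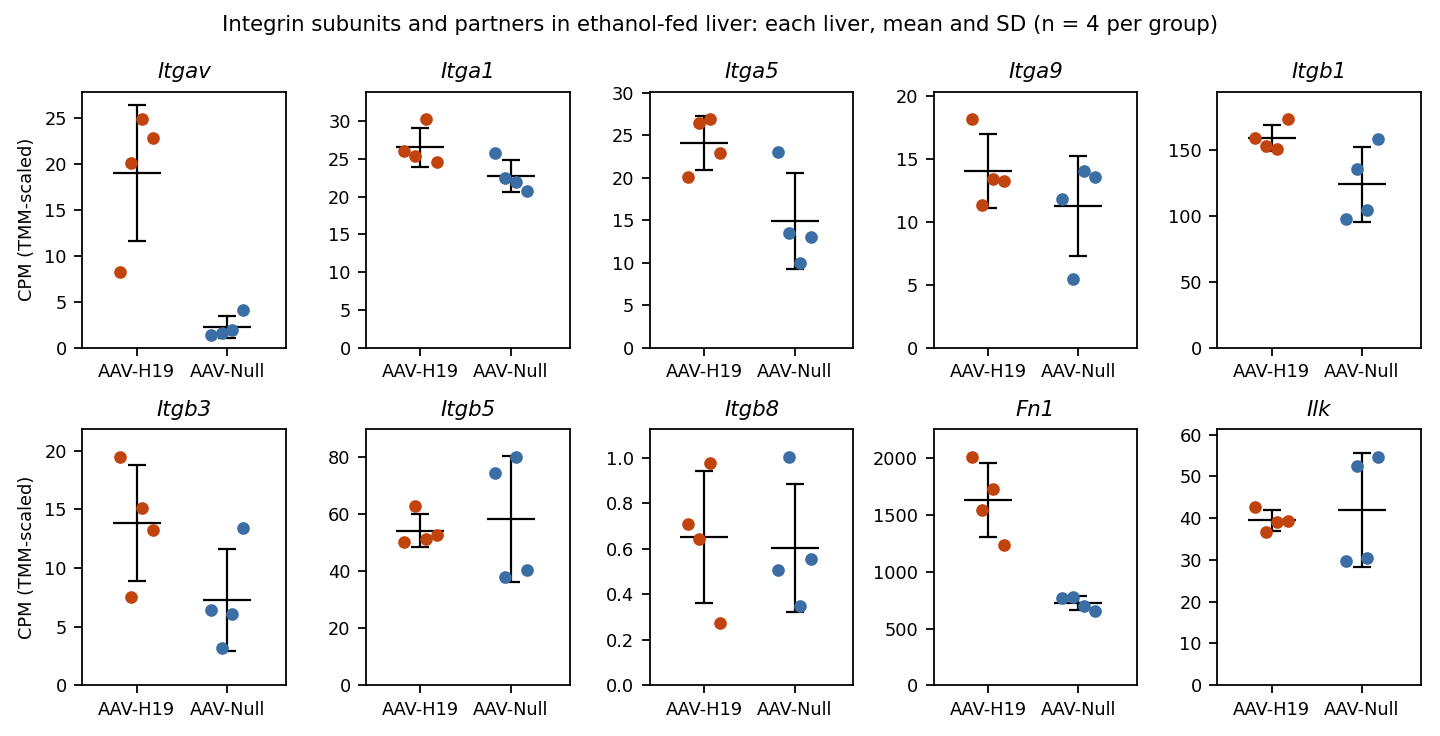
Level of each of the 10 genes (CPM, TMM-scaled, linear axes from 0) in the 4 AAV-H19 and 4 AAV-Null livers; points are livers, in order of liver number, and bars are the mean and SD. Itgav and Fn1 are the only panels in which the groups do not overlap, and Itgb5 and Ilk split the AAV-Null livers into pairs that bracket the AAV-H19 livers.

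Across the set, the groups did not overlap for 2 of 10 members, Itgav and Fn1, both higher in AAV-H19 livers; over all genes tested, 12.1% were higher without overlap and 23.7% were apart in either direction. The fit with edgeR's quasi-likelihood test called the same 2 members higher at a Benjamini-Hochberg adjusted p under 0.05 and none lower, beside 5.6% of all genes tested called higher, 6.07% called lower and 11.7% called in either direction. DESeq2 and limma-voom also called Itgav and Fn1 and none lower, and at an unadjusted p under 0.05 edgeR had 3 members higher and 0 lower. With the length offset Itgav alone was called, beside 1.41% of all genes called higher, 0.804% lower and 2.21% in either direction. Fn1 was not called without AAV-H19 27, and Itga5 was called in addition without AAV-Null 21. Since the rise of Itgav in these same livers chose the members, none of these calls is evidence of a difference. The median log2 fold change of the members was 0.34, against -0.02 over all genes tested, and with the offset it was 0.09, against -0.05. The members' median length of 6402 nt lies in the longest 10% of all genes tested. Among those genes the median was 0.49, or -0.01 with the offset. Without the offset 20.3% of them were called higher and 0.719% lower.

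**Figure D2:**
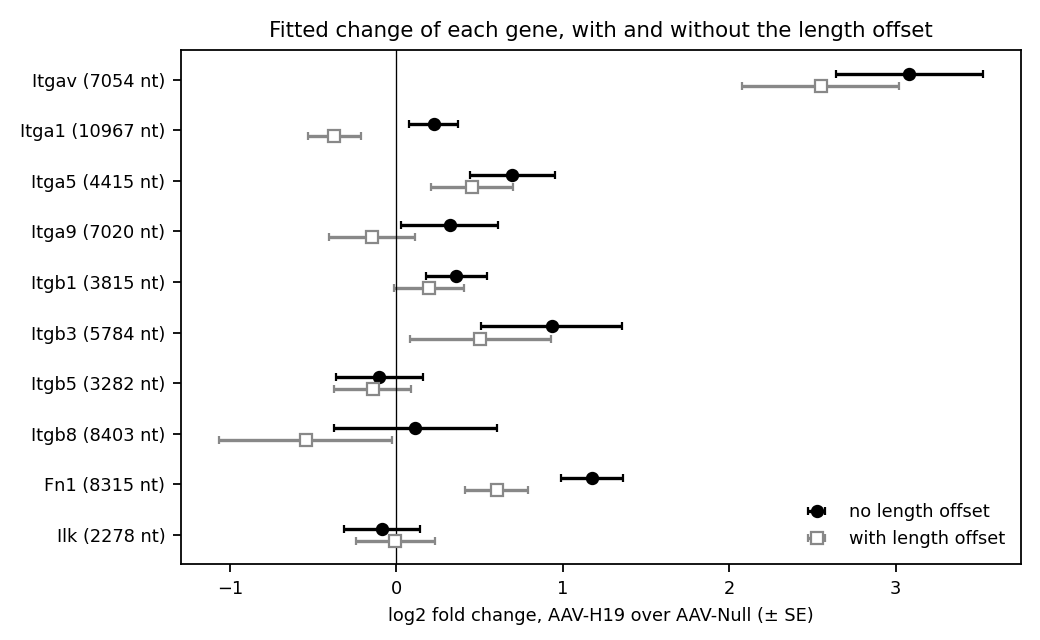
Fitted log2 fold change (AAV-H19 over AAV-Null) of each gene with its SE, from the fit without (filled circles) and with (open squares) the length offset; the longest annotated transcript is given in nt beside each name. Itgav stays at 2.55 with the offset, Fn1 moves to 0.60, and Itga1, Itga9 and Itgb8 change sign.

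**Figure D3:**
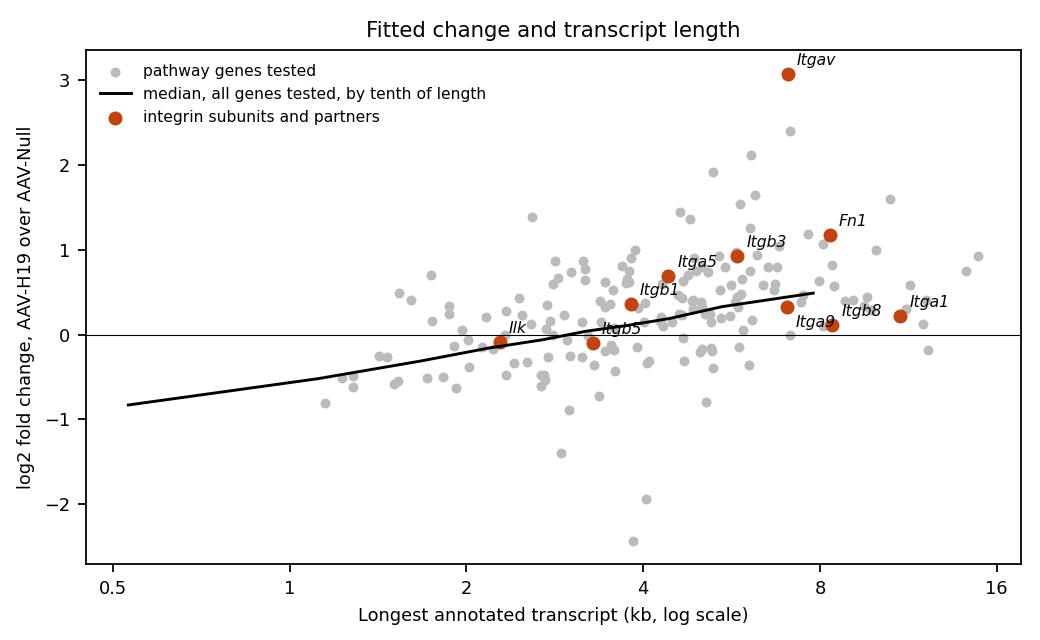
Log2 fold change (AAV-H19 over AAV-Null) against the longest annotated transcript (kb, log axis) for the 10 genes (orange), the pathway genes tested (grey) and the median of all genes tested in 10 bins of length (line). The line climbs with length, at -0.83 in the shortest bin and 0.49 in the longest. Itgav at 3.08 stands far above it. Fn1 at 1.17 is next, and Itgb3 at 0.93 and Itga5 at 0.70 lie above the line by not much less than Fn1.

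Levels can be set against each other across genes only per length, for which TPM, a level scaled to library size and transcript length, was computed with the longest annotated transcript. TPM and the shares of TPM below were not corrected for the length trend that separates the groups, so differences between the groups in them include it. On that scale Fn1 was the most abundant member, at 342.5 ± 68.1 TPM in AAV-H19 livers and 139.7 ± 13.5 TPM in AAV-Null livers, followed by Itgb1 at 72.6 ± 2.67 TPM in AAV-H19 livers and 51.8 ± 10.2 TPM in AAV-Null livers. Ilk (30.2 ± 1.16 TPM in AAV-H19 livers, 29.1 ± 7.78 in AAV-Null livers) and Itgb5 (28.8 ± 4.26 TPM in AAV-H19 livers, 29.2 ± 13.4 in AAV-Null livers) came next and did not differ from each other beyond their spread in either group. Itga5 followed, at 9.57 ± 1.69 TPM in AAV-H19 livers and 5.40 ± 2.11 TPM in AAV-Null livers. In AAV-H19 livers Itgav (4.74 ± 1.91 TPM), Itga1 (4.23 ± 0.532 TPM), Itgb3 (4.14 ± 1.38 TPM) and Itga9 (3.47 ± 0.607 TPM) followed within each other's spread. In AAV-Null livers Itga1 (3.34 ± 0.455 TPM), Itga9 (2.64 ± 1.08 TPM) and Itgb3 (2.04 ± 1.21 TPM) lay close together, with Itgav below them at 0.513 ± 0.279 TPM. Itgb8 was last, at 0.137 ± 0.0634 TPM in AAV-H19 livers and 0.112 ± 0.0403 TPM in AAV-Null livers.

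Taking all 18 alpha subunit genes of the table, Itgav made up 6.15, 14.0, 16.1 and 16.6% of alpha subunit TPM in AAV-H19 livers 25 to 28, against 1.19, 1.9, 1.86 and 4.07% in AAV-Null livers 21 to 24. It had rank 3 among them in AAV-H19 livers, behind Itga5 and Itga7, and rank 11 in AAV-Null livers. Itga5 had the largest share in both groups, 26.9 ± 2.32% in AAV-H19 livers and 23.2 ± 6.53% in AAV-Null livers. Summed over the 18 genes, alpha subunits came to 35.4 ± 3.71 TPM in AAV-H19 livers and 23.3 ± 4.57 TPM in AAV-Null livers. These sums include the length trend, whose part in them was not tested. For the 12 alpha subunits tested outside the members, the median log2 fold change was 0.22, and -0.18 with the length offset. Among the 9 beta subunit genes, Itgb1 held 66.0% of TPM in AAV-H19 livers and 60.3% in AAV-Null livers, and Itgb5 held 26.1% in AAV-H19 livers and 32.8% in AAV-Null livers. Set against the summed TPM of its 5 beta partners, Itgav amounted to 4.45 ± 1.78% in AAV-H19 livers and 0.605 ± 0.284% in AAV-Null livers. Without Itgb1, which also serves other alpha subunits, it amounted to 14.2 ± 5.78% in AAV-H19 livers and 1.92 ± 1.41% in AAV-Null livers. In all 8 livers Itgav RNA was thus scarcer per length than the summed RNA of its partners.

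**Figure D4:**
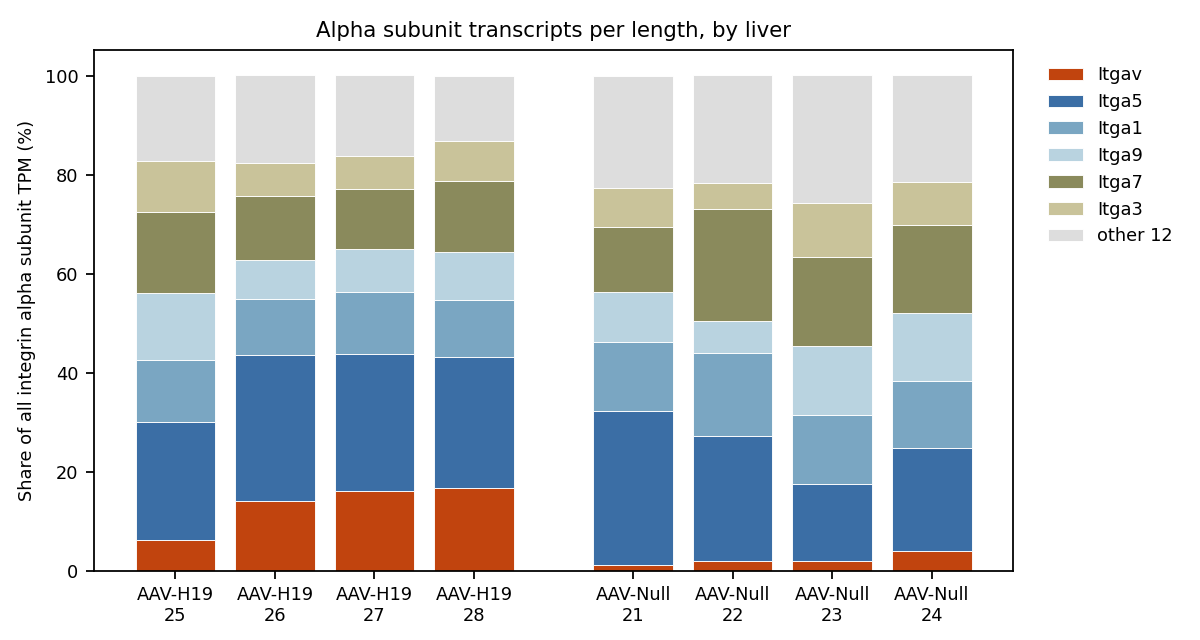
Share of all integrin alpha subunit TPM (%) in each liver, stacked, with AAV-H19 livers on the left and AAV-Null livers on the right. The Itgav segment is 6.15 to 16.6% in AAV-H19 livers and 1.19 to 4.07% in AAV-Null livers.

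The livers did not rank alike across the members. AAV-H19 25 was the lowest of its group for 3 members (Itgav, Itga5 and Itgb5) and the highest for 4 (Itga9, Itgb3, Fn1 and Ilk). AAV-H19 27 was the highest for Itgav, Itga1, Itga5 and Itgb8. In the other group, AAV-Null 24 was the highest for Itgav, Itgb1, Itgb3 and Ilk and the lowest for Itga1 and Fn1.

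Genes whose pattern over the 8 livers was most like that of Itgav were ranked by the root mean square difference of log2 CPM, each gene centred on its mean, among 13586 genes with non-provisional symbols. Because Itgav differs strongly between the groups, this ranking picks genes much higher in AAV-H19 livers. The group levels of the genes picked are therefore a description, and shared regulation with Itgav was not tested. The 5 nearest were Atp7a, a copper-transporting ATPase (0.484 log2 units), Slc16a5, of the monocarboxylate transporter family (0.528), Nnat, an imprinted gene encoding neuronatin (0.613), Adam10, a membrane metalloprotease that sheds surface proteins (0.617), and Foxc2, a forkhead transcription factor (0.624). Atp7a averaged 3.09 ± 0.467 CPM in AAV-H19 livers and 0.408 ± 0.107 CPM in AAV-Null livers. Slc16a5 averaged 64.5 ± 15.8 CPM in AAV-H19 livers and 13.3 ± 4.83 CPM in AAV-Null livers. Nnat averaged 1.87 ± 0.493 CPM in AAV-H19 livers and 0.268 ± 0.0478 CPM in AAV-Null livers. Like Itgav, Slc16a5 had its lowest AAV-H19 value in liver 25. Adam10 averaged 18.7 ± 2.63 CPM in AAV-H19 livers and 3.52 ± 0.846 CPM in AAV-Null livers, and Foxc2 was near the detection limit, at 0.280 ± 0.0686 CPM in AAV-H19 livers and 0.0423 ± 0.0432 CPM in AAV-Null livers. Of the members, the nearest to Itgav were Fn1 (1.23 log2 units, rank 515) and Itgb3 (1.28 log2 units, rank 779), and Itgb5 and Itgb8 were far from it (ranks 7700 and 7922).

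Genes that act with these integrins were followed in 7 lists of 177 genes, of which 172 passed the filter and 6 are also cell type markers used below. By edgeR's quasi-likelihood test 15 rose in AAV-H19 livers and 3 fell, 8.72% and 1.74% of those tested, beside 5.6% and 6.07% of all genes. The median log2 fold change of the 172 was 0.30, against -0.02 over all genes tested, and their median transcript length was 4183 nt. Of all genes tested with transcripts of 4094 to 4851 nt, 8.1% were called higher and 1.2% lower. The median of those genes was 0.19, or -0.05 with the length offset. With the length offset 2 of the 172 rose and 0 fell, with a median of 0.05. At an unadjusted p under 0.05 that fit had 20 of the 172 higher and 12 lower. None of the 18 genes was called in every fit that left out a liver: without AAV-H19 25, 26 or 27 there were 0 calls in either direction (29, 39 and 28 higher and 8, 12 and 8 lower at an unadjusted p under 0.05), without AAV-H19 28 there were 3 rises, and without any one AAV-Null liver 10 to 14 rises. No gene named from the lists below was called in more than 5 of the 8 fits that left out a liver.

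Of the other alpha subunits, 12 of 14 were tested and 1 rose. It was Itga2, a collagen-binding partner of Itgb1, at 1.32 ± 0.393 CPM in AAV-H19 livers and 0.248 ± 0.216 CPM in AAV-Null livers (log2 fold change 2.40 ± 0.58, adjusted p = 0.0329, edgeR). Without AAV-Null 24 its log2 fold change was 3.20, and with the length offset 1.86 (adjusted p = 0.12, edgeR). The laminin receptor subunit Itga6 and the RGD-binding Itga8 did not pass, with log2 fold changes of 0.60 ± 0.29 and 0.33 ± 0.25 (adjusted p = 0.193 and 0.408, edgeR). Of the 5 other beta subunits 0 were called by edgeR, DESeq2 or limma-voom, and 1 was higher and 0 lower at an unadjusted p under 0.05. Among them Itgb6, an Itgav partner of epithelia, was at 0.230 ± 0.171 CPM in AAV-H19 livers and 0.0903 ± 0.127 CPM in AAV-Null livers (log2 fold change 1.36 ± 1.38, adjusted p = 0.546, edgeR).

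Of 37 ligands tested beside Fn1, 3 rose and 1 fell. Lamc1, a laminin chain of basement membranes, averaged 19.2 ± 2.98 CPM in AAV-H19 livers and 8.46 ± 3.01 CPM in AAV-Null livers (log2 fold change 1.18 ± 0.28, adjusted p = 0.0309, edgeR). Thbs1, a matricellular protein that can activate latent TGF-beta, averaged 6.55 ± 2.40 CPM in AAV-H19 livers and 2.25 ± 1.26 CPM in AAV-Null livers (1.54 ± 0.42, adjusted p = 0.0448, edgeR), with overlapping groups. Lama3, another laminin chain, had a log2 fold change of 1.60 ± 0.45 (adjusted p = 0.0475, edgeR). Icam2, an endothelial ligand of leukocyte integrins, fell by 0.61 on the log2 scale (adjusted p = 0.0492, edgeR). The other RGD ligands of Itgav singled out did not pass: Vtn, plasma vitronectin, averaged 1710.5 ± 217.5 CPM in AAV-H19 livers and 1529.5 ± 90.0 CPM in AAV-Null livers (0.16 ± 0.16, adjusted p = 0.522, edgeR), and Spp1, osteopontin, averaged 31.2 ± 2.69 CPM in AAV-H19 livers and 46.8 ± 10.7 CPM in AAV-Null livers (-0.59 ± 0.19, adjusted p = 0.0676, edgeR). The calls on ligands were lost with the length offset.

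Of 50 adhesion adaptors and kinases, all tested, 6 rose and 1 fell. Vcl, vinculin, which ties talin to actin at adhesions, averaged 21.2 ± 5.16 CPM in AAV-H19 livers and 5.60 ± 2.62 CPM in AAV-Null livers (log2 fold change 1.92 ± 0.36, adjusted p = 0.0188, edgeR). Actn4, an actin crosslinker, averaged 159.7 ± 16.4 CPM in AAV-H19 livers and 79.7 ± 20.5 CPM in AAV-Null livers (1.003 ± 0.199, adjusted p = 0.0213, edgeR). These genes were the 2 still called with the length offset, at log2 fold changes of 1.58 and 0.85 (adjusted p = 0.0449 and 0.0387, edgeR). Dock1, an activator of Rac, rose by 1.04 ± 0.21 (adjusted p = 0.0221, edgeR), and Cib1, a calcium-binding protein first known for binding the Itga2b tail, fell by 0.81 ± 0.17 (adjusted p = 0.0229, edgeR). The direct partners of Ilk did not pass: the log2 fold change was 0.10 ± 0.19 for Lims1 (PINCH) and 0.48 ± 0.16 for Parva (parvin), with adjusted p = 0.753 and 0.073 (edgeR). Nor did the integrin activators Tln1 (talin, 0.82 ± 0.31, adjusted p = 0.104, edgeR) and Fermt2 (kindlin, -0.36 ± 0.23, adjusted p = 0.318, edgeR).

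Of 20 genes of TGF-beta activation and response, 2 rose and 0 fell, with 3 higher and 0 lower at an unadjusted p under 0.05 and 3 higher and 0 lower by DESeq2. Both were receptors: Tgfbr2, the type II receptor, averaged 116.7 ± 5.67 CPM in AAV-H19 livers and 55.7 ± 19.5 CPM in AAV-Null livers (log2 fold change 1.07 ± 0.26, adjusted p = 0.0329, edgeR), and Tgfbr3, the co-receptor betaglycan, averaged 14.0 ± 2.32 CPM in AAV-H19 livers and 8.35 ± 0.631 CPM in AAV-Null livers (0.75 ± 0.17, adjusted p = 0.0301, edgeR). Tgfbr3 overlaps Gm43422 on the same strand, and with both summed the log2 fold change was 0.74 ± 0.17 (adjusted p = 0.0297, edgeR). Tgfb1, the cytokine that Itgav integrins release, averaged 8.97 ± 1.10 CPM in AAV-H19 livers and 8.20 ± 4.23 CPM in AAV-Null livers (0.13 ± 0.38, adjusted p = 0.853, edgeR). Of 20 membrane partners tested 1 rose and 1 fell. They were Lrp1, an endocytic receptor that affects integrin turnover (0.93 ± 0.26, adjusted p = 0.0488, edgeR), and the tetraspanin Cd82 (-0.50 ± 0.14, adjusted p = 0.0464, edgeR), while the tetraspanin Cd151 had a log2 fold change of 0.34 ± 0.35 (adjusted p = 0.552, edgeR). Of 28 trafficking genes 2 rose and 0 fell, with 6 higher and 1 lower at an unadjusted p under 0.05 and 3 higher and 0 lower by DESeq2. Rab11b, a GTPase of the recycling route, averaged 57.9 ± 9.03 CPM in AAV-H19 livers and 13.3 ± 9.06 CPM in AAV-Null livers (2.12 ± 0.46, adjusted p = 0.026, edgeR), and Rab5b, of early endosomes, averaged 69.1 ± 7.76 CPM in AAV-H19 livers and 44.2 ± 2.47 CPM in AAV-Null livers (0.65 ± 0.14, adjusted p = 0.0273, edgeR). No call in these 3 lists held with the length offset.

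**Figure D5:**
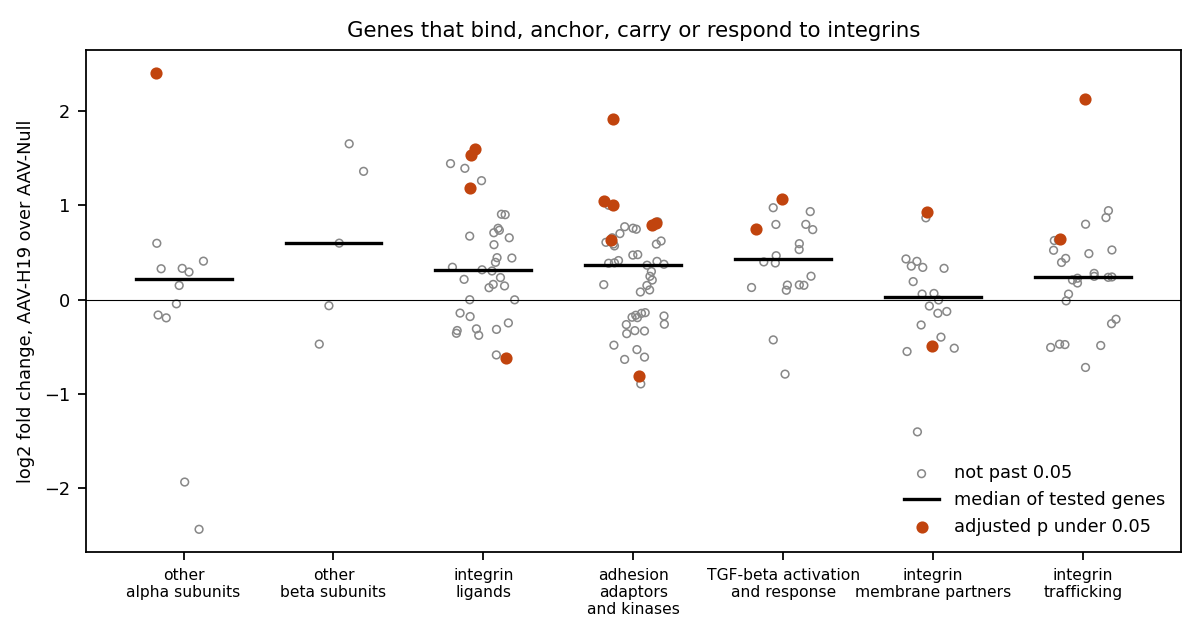
Log2 fold change (AAV-H19 over AAV-Null) of the 172 tested genes in the 7 lists; filled points have an adjusted p under 0.05 (edgeR), open points do not, and bars are list medians. Of the filled points 15 lie above 0 and 3 below, and list medians run from 0.03 for membrane partners to 0.60 for the 5 other beta subunits.

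Marker genes of liver cell types were set beside these levels. Hepatocyte markers summed to 121504 to 130372 CPM in AAV-H19 livers and 85796 to 128497 CPM in AAV-Null livers. None was at 0 in any liver. Most of the sum was Alb, which averaged 89094.9 CPM in AAV-H19 livers and 71303.0 CPM in AAV-Null livers. Of the 10 log2 fold changes 5 were positive and 5 negative, with a median of 0.0, and by edgeR 2 rose (Cps1 and Hnf4a) and 1 fell (Asgr1). Stellate cell markers, of the cell type in which Itgav is best studied in liver, summed to 150.0 to 176.3 CPM in AAV-H19 livers and 105.7 to 172.8 CPM in AAV-Null livers, and 1 of 13 rose (Hgf). Sinusoidal endothelial markers summed to 330.0 to 421.3 CPM in AAV-H19 livers and 242.3 to 418.9 CPM in AAV-Null livers, with 1 rise (Cdh5) and 1 fall (Clec4g) among 11. Kupffer and myeloid markers summed to 182.6 to 251.9 CPM in AAV-H19 livers and 313.2 to 487.3 CPM in AAV-Null livers, and 7 of 15 fell by edgeR, Lyz2 most (log2 fold change -1.49 ± 0.25, adjusted p = 0.0129, edgeR). The log2 fold changes of all 15 were negative, with a median of -0.85, and the median was -0.65 with the length offset. With the length offset 2 of the 7 still fell, Lyz2 and Clec4f. Of 10 cholangiocyte markers tested 2 rose (Sox9 and Pkhd1) and 0 fell, with summed levels of 90.9 to 115.8 CPM in AAV-H19 livers and 100.7 to 124.6 CPM in AAV-Null livers. Of 8 lymphocyte markers tested 1 fell (Trbc2), and the sums were 1.56 to 1.90 CPM in AAV-H19 livers and 3.07 to 4.76 CPM in AAV-Null livers. No platelet (4 tested), neutrophil (6) or mesothelial and portal fibroblast marker (8) was called by edgeR; at an unadjusted p under 0.05 there were 0 higher in each list and 1, 2 and 0 lower, and DESeq2 called 0 higher and 1, 1 and 0 lower. With the length offset the 9 marker calls outside the Kupffer and myeloid list (Cps1, Hnf4a, Asgr1, Hgf, Cdh5, Clec4g, Sox9, Pkhd1 and Trbc2) were lost. The part of any of these cell types in the members' levels was not tested.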

How the data were processed

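Poly(A) RNA of 8 livers was extracted with Direct-zol kits and made into stranded TruSeq libraries, per the labels' protocols. HISAT and StringTie are named in the submitters' processing notes. Tool versions and roles, build, annotation and counting strand were not given in the sources used here. As for units, the deposited table holds each gene's estimated count as made by the authors, for 55450 Ensembl identifiers, whole numbers in every cell, so rounding changed nothing. The value 4 was found for 820 to 990 genes per library, the value 3 for 226 to 285 and the value 5 for 124 to 164, so 1 unit is not 1 read and the true counting error exceeds what the units imply. All identifiers matched GENCODE M21 (GRCm38), which gave symbols, positions and the longest transcript used for TPM.

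Low genes were removed by edgeR's filterByExpr (version 4.0.16; default minimum count of 10 and minimum total of 15), leaving 16672; those removed held 0.0454% of counts. Libraries were TMM-scaled and compared with edgeR's quasi-likelihood test (robust, no covariates; R 4.3.3). P-values were Benjamini-Hochberg adjusted over all genes tested, with a threshold of 0.05. The SE was obtained as log2 fold change over the root of F. The common biological coefficient of variation was 0.389. The labels number the livers and name no batch, litter or day, so p-values reflect only how these samples vary, which may be technical. The length offset is a natural spline (5 degrees of freedom) of log2 CPM on transcript length, per library.

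The members and lists were chosen with earlier results of these data known. The genes named are the members, up to 4 called genes with the smallest p from each of 7 integrin lists and 11 others named whatever they did, up to 3 called genes from each of 9 cell type lists, and the 5 genes most like Itgav. Outside this rule, H19, Itga7, Itga2b, Gp6, Clec1b, Alb and genes that overlap a named gene are mentioned beside it. On counts simulated for this comparison without a length trend (16106 genes), 8% of 2-fold and 65% of 4-fold changes were recovered, with 4 false calls. Simulated with a length trend (16122 genes), there were 41 false calls without the offset and 5 with it. Recovery there was 20% of 2-fold and 63% of 4-fold changes without the offset, and 14% and 58% with it. In the livers, calls in either direction went from 11.7% of genes to 2.21% with the offset, a larger drop than in this simulation. The simulation thus does not give the number of calls that come with length in these data. Alternatives were DESeq2 size factors, upper-quartile factors, DESeq2 1.42.0, limma-voom (limma 3.58.1), no filter, 1 CPM in 4 samples, leaving out each liver, the length offset, values divided by 4 and overlapping genes summed.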

Additional observations from a re-analysis of the deposited data

Results flagged for a closer look

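In groups of 4 livers, the highest or lowest liver was marked where its gap to the nearest of the others exceeded Dixon's 95% critical share of the group's range, which chance does in about 1 in 20 groups. Of 106 groups over 53 named genes, 5 were marked, and none of the 20 groups of the integrin members.

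Asgr1 was low in AAV-H19 27, at 370.7 CPM against 429.1 to 439.4 CPM in the other AAV-H19 livers. Slc16a5, one of the genes most like Itgav, was low in AAV-H19 25, at 41.0 CPM against 71.4 to 74.0 CPM in the other AAV-H19 livers. Cdh5 was low in AAV-Null 22, at 11.4 CPM against 25.3 to 25.6 CPM in the rest of its group. Trbc2 was high in the same liver, at 0.807 CPM against 0.704 to 0.718 CPM. The integrin subunit Itga6 was high in AAV-Null 23, at 1.43 CPM against 0.905 to 0.946 CPM in the rest of its group.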

How the results depend on the processing

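The log2 fold change of Itgav, whose rise in these livers chose the members, was 2.55 to 3.54 over the 17 alternatives, given as a description. Over all genes, 934 higher and 1012 lower became 1640 and 2013 with DESeq2 and 235 and 134 with the length offset, and 1557 were lower with upper-quartile factors; leaving out a liver gave 86 to 1023 higher and 27 to 1050 lower. Upper-quartile factors moved the median log2 fold change from -0.02 to -0.13. Of all calls 48.0% were higher, against 29.6% with upper-quartile factors, 63.7% with the length offset, and 70.7%, 67.8% and 76.1% without AAV-H19 25, 26 and 27. The 2 members called higher became 1 with the length offset and 1 to 3 as a liver was left out. Over the 7 integrin lists, 15 rises became 26 with DESeq2 and 2 with the length offset, and 0 to 14 as a liver was left out; 3 falls became 6 with upper-quartile factors, 9 with DESeq2, 1 with no filter, 5 with the filter of 1 CPM and 0 with the length offset, and 0 to 6 as a liver was left out. Signs turned with the length offset for Itga1 (-0.37), Itga9 (-0.15), Itgb8 (-0.55), Lims1 (-0.15) and Itga8 (-0.12), none of them called, and with upper-quartile factors for Lims1 (-0.0044). As a liver was left out, signs turned for Itgb5 (-0.26 to 0.0844), Itgb8 (-0.15 to 0.47), Ilk (-0.23 to 0.0743) and Tgfb1 (-0.16 to 0.36). Of the 33 named genes past the threshold (members and genes picked for likeness to Itgav among them), 9 were kept with the length offset. They were Itgav, the genes picked for likeness to it Atp7a, Slc16a5, Nnat and Adam10, and also Vcl, Actn4, Lyz2 and Clec4f. Since the rise of Itgav chose the first of these, the count of 9 does not measure how well calls hold. Dividing values by 4 or summing overlapping genes lost none of the 33. Apart from the effect of fewer livers, the cause of these shifts was not tested. No paired analysis was possible because the livers' numbers, 25 to 28 and 21 to 24, are not shared between the groups. Low depth limits the precision of Itgb8, at 19 to 71 units per liver.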
